A study of Mus musculus with 6 samples.

Results

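The genes described here make the folding machinery of the endoplasmic reticulum (ER) and the transcription factors of its stress response, known as the unfolded protein response (UPR). The 10 genes, chosen by symbol among the 37991 Ensembl genes counted, were Hspa5, Hsp90b1, Pdia3, Pdia4, Pdia6, Calr, Canx, Xbp1, Atf4 and Ddit3. All 10 had an entry in the count files and all 10 passed the filter on low counts. RNA was sequenced from natural killer (NK) cells of mouse spleen that carried CD27 and CD11b, 3 libraries from Rroid-deficient mice and 3 from wildtype mice, all labelled with the background strain C57BL6. Rroid is a long noncoding RNA locus near Id2 on chromosome 12. The sources used here do not give the age or sex of the mice, how the allele was made or whether each library came from its own mouse. The p-values therefore speak to the spread among these 6 libraries, which may be technical. The summed level of cytosolic heat shock genes is known from these data to be higher in the deficient libraries, and the question here was whether the ER genes went with it.

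Secretory and membrane proteins fold in the ER with the help of Hsp70, Hsp90, lectin chaperones and protein disulfide isomerases. When unfolded proteins accumulate there, the sensors IRE1, PERK and ATF6 start the UPR: IRE1 splices Xbp1 mRNA, PERK raises translation of Atf4 mRNA, and cleaved ATF6 enters the nucleus, so that transcription of the chaperone genes rises. Unfolded proteins in the cytosol instead activate the heat shock factor HSF1 and its targets, such as Hspa1a. NK cells pass perforin, granzymes and surface receptors through the ER. Counts per gene measure neither Xbp1 splicing nor Atf4 translation, so only the transcript level of these factors could be compared.

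Promoter stretches are shown for those of the 10 genes in which an ER stress element was found, and for Hspe1. Stress element matches in Dnajc3, Creld2, Hsph1, Chordc1 and Hspd1 are not printed. RefSeq windows of build GRCm38.p6, from 250 bases before to 50 bases after the gene start, were found for all 10 genes. The ER stress element, bound by ATF6 with the factor NF-Y, was searched as CCAAT, then 9 bases, then CCACG on both strands. It was found in 5 of the 10 genes (Hspa5, Hsp90b1, Pdia6, Calr and Canx) and in 0.119% of all 32851 windows. The stretch before the start of Hspa5, at chr2:34771840-34772089 on the plus strand, holds it at bases 65 to 47 before the start, in capitals.
Hspa5: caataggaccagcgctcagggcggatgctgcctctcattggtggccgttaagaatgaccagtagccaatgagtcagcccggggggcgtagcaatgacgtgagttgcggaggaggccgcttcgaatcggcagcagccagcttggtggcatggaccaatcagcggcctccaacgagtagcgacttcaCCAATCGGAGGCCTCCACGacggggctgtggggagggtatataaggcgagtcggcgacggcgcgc
The other matches are given with 10 bases on each side, read on the strand of the gene, with the element in capitals. The second match of Hsp90b1 and that of Calr lie on the other strand and so read as the reverse complement.
Hsp90b1, first match, chr10:86705628-86705666, minus strand: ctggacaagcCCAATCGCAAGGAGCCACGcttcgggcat
Hsp90b1, second match, chr10:86705523-86705561, minus strand: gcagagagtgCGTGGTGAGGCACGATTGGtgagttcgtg
Pdia6, chr12:17266481-17266519, plus strand: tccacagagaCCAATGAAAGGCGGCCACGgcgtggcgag
Calr, chr8:84847065-84847103, minus strand: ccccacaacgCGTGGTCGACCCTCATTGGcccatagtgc
Canx, chr11:50325790-50325828, minus strand: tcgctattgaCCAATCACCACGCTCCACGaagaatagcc
The heat shock element bound by HSF1, searched as GAA, 2 bases, TTC, 2 bases, GAA on both strands, was found in 0 of the 10 windows and in 0.603% of all windows. Among 16 of 20 cytosolic heat shock genes that had a window, it was found in 2, Hsph1 and Chordc1, in matches that reached past the gene start. It was not found in Hspa1a, Hspa1b, Dnaja1 or Dnajb1, and Hspa8, Hsp90aa1 and Hsp90ab1 had no window. A search that finds none in Hspa1a, an HSF1 target, cannot show that the 10 ER genes lack such elements. Among 8 of 9 mitochondrial chaperone genes that had a window, the heat shock element was found in 2, Hspd1 and Hspe1. Hspe1, which encodes a mitochondrial chaperonin subunit, holds it on both strands in overlapping matches.
Hspe1, chr1:55088049-55088086, plus strand: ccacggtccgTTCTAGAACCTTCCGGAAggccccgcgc
The UPR element TGACGTGG (0.676% of all windows) and the ATF4 element TGATGNAA (3.97%) were in none of the 10 windows. The parts of the ER stress element taken alone were common, CCAAT in 37.4% and CCACG in 32.8% of all windows, and in 9 and 7 of the 10 genes.

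Reads assigned to genes ranged from 6146465 to 7363793 in deficient libraries and from 5823626 to 9216430 in wildtype libraries. Tested genes with a count of 0 made up 0.392% to 5.57% in deficient and 0.23% to 5.63% in wildtype libraries, and library 1 of each genotype had the highest share. Of 11724 genes tested, 2 (0.0171%) passed edgeR's quasi-likelihood test at an adjusted p of 0.05, Hspa1a higher and Id2 lower (0.00853% in each direction). Id2, the gene next to the Rroid element, had counts of 270, 409 and 587 in deficient libraries and 3121, 3148 and 2171 in wildtype libraries. Fewer cells of a type and less RNA per cell cannot be told apart in these bulk libraries. Values below are CPM, reads of a gene divided by the library size after TMM scaling, with each group's libraries in the order 1 to 3. Fold changes are log2 values, deficient against wildtype.

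None of the ER chaperone and UPR genes passed the test. The edgeR quasi-likelihood test, adjusted by Benjamini-Hochberg over all 11724 genes, passed 0 of the 10, at adjusted p-values of 0.925 to 0.993, and 0.0171% of all genes. At an unadjusted p under 0.05 there were again 0 of 10, where 5.29% of all tested genes lay, 2.76% higher and 2.52% lower. DESeq2 on the same filtered genes called 0 of the 10 and 0.569% of all genes with an adjusted p. DESeq2 with its own filter called 0 of the 10 and 0.715% of all genes, edgeR without a filter 0 of the 10 and 0.495%, and limma-voom 0 of the 10 and 0.00853%. The log2 fold change was positive in 4 of the 10 and in 51.6% of all tested genes, with a median of -0.04, beside 0.02 over all genes tested. Libraries of the genotypes did not overlap in 1 of the 10, Pdia4, or 10%, while 12.4% of all tested genes had no overlap, 6.03% higher and 6.33% lower.

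**Figure D1:**
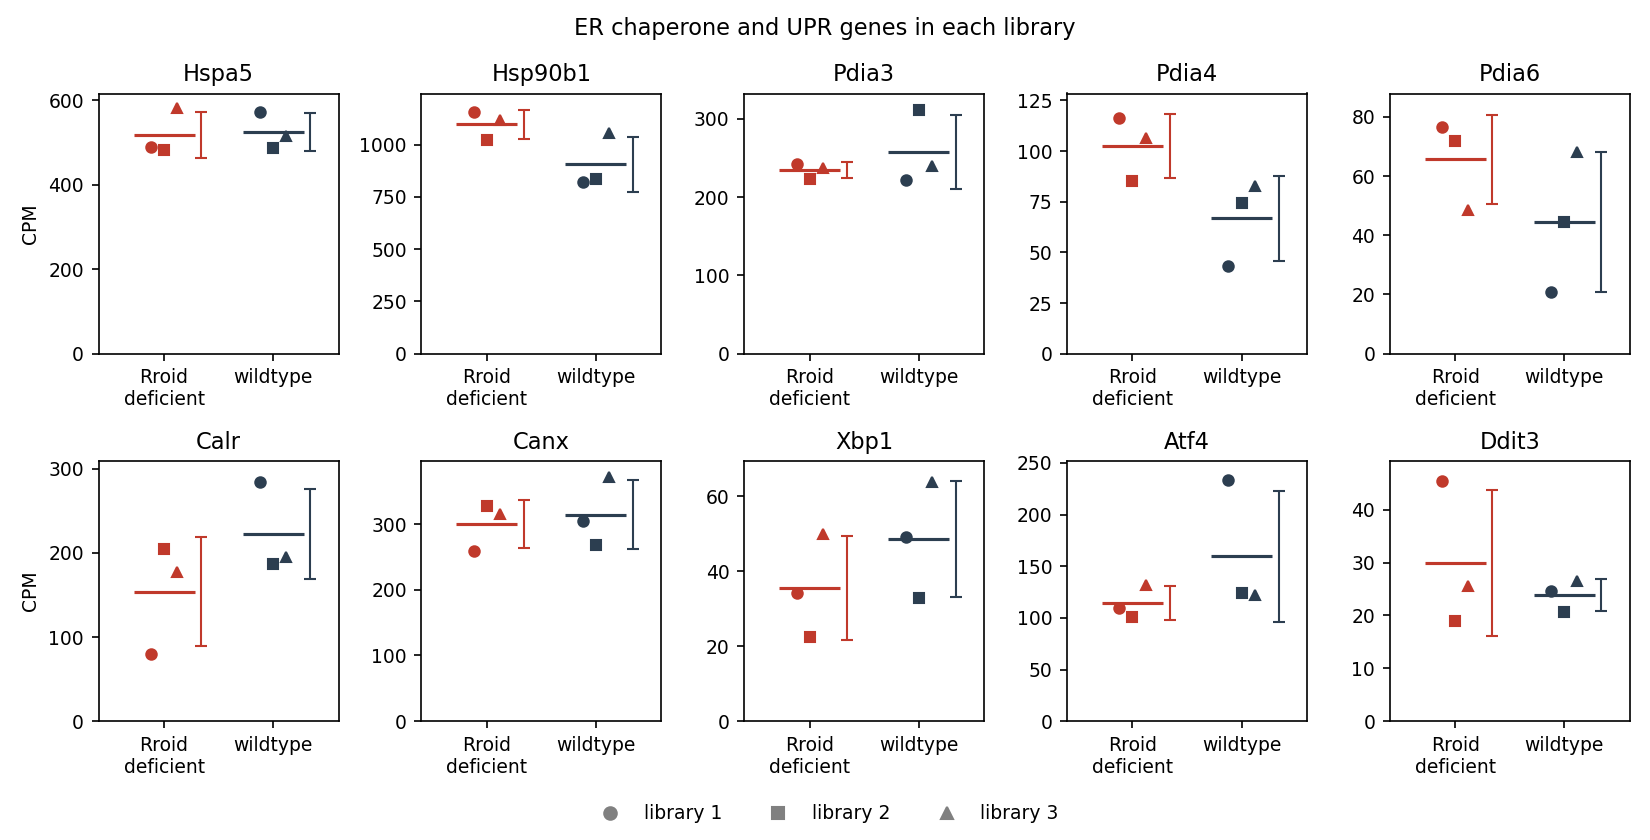
CPM of each of the 10 ER chaperone and UPR genes in the 3 Rroid-deficient (red, left) and 3 wildtype (dark, right) libraries, with the mean as a line, the SD as a bar and the library number as the marker shape. The groups overlap in every panel but Pdia4, where the deficient libraries lie between 85.5 and 116 CPM and the wildtype libraries between 43.3 and 82.9 CPM.

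Hspa5 encodes BiP, the Hsp70 of the ER, which also holds the UPR sensors inactive and is the usual readout of ER stress. It had 489, 481 and 580 CPM in deficient libraries, against 573, 485 and 515 CPM in wildtype libraries. Both groups covered nearly the same range. Its log2 fold change of -0.02 (SE 0.17) had a 95% interval of -0.39 to 0.35, which corresponds to a ratio between 0.764 and 1.27. A doubling of Hspa5 lay outside this interval.

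Hsp90b1 encodes GRP94, the Hsp90 of the ER, which folds integrins and Toll-like receptors. It had 1155, 1021 and 1116 CPM in deficient libraries, against 823, 838 and 1057 CPM in wildtype libraries. Wildtype library 3 lay within the range of the deficient libraries, and the other wildtype libraries lay below it. Its log2 fold change of 0.28 (SE 0.15) had a 95% interval of -0.07 to 0.62 (edgeR adjusted p = 0.925).

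Calr and Canx encode calreticulin and calnexin, the soluble and the membrane-bound lectin chaperones that hold newly glycosylated proteins. Calr had 80.3, 204 and 177 CPM in deficient libraries, against 284, 187 and 196 CPM in wildtype libraries. Deficient library 1 was the lowest and wildtype library 1 the highest, and the other 4 libraries lay between 177 and 204 CPM. For Calr the log2 fold change was -0.53 (SE 0.34; edgeR adjusted p = 0.925), and it was -0.01 when both libraries numbered 1 were left out. Canx had 259, 327 and 316 CPM in deficient libraries, against 304, 268 and 371 CPM in wildtype libraries, and the groups overlapped, with a log2 fold change of -0.06 (SE 0.20).

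Pdia3, Pdia4 and Pdia6 encode ERp57, ERp72 and P5, which form and rearrange disulfide bonds; ERp57 works with the lectin chaperones and in loading of MHC class I. Pdia3 had 243, 223 and 237 CPM in deficient libraries, against 222, 311 and 239.6 CPM in wildtype libraries. Its log2 fold change was -0.14 (SE 0.20), and the deficient libraries lay inside the wildtype range. Pdia4 had 116, 85.5 and 106 CPM in deficient libraries, against 43.3, 74.3 and 82.9 CPM in wildtype libraries. All deficient libraries lay above all wildtype libraries, by a narrow gap between deficient library 2 and wildtype library 3. Pdia4 had a log2 fold change of 0.62 (SE 0.33, 95% interval -0.11 to 1.35, unadjusted p = 0.0872; edgeR adjusted p = 0.925), which was 0.28 without both libraries numbered 1. Pdia6 had 76.7, 71.8 and 48.5 CPM in deficient libraries, against 20.8, 44.6 and 68.1 CPM in wildtype libraries. The groups overlapped, with a log2 fold change of 0.56 (SE 0.46) that became 0.09 without both libraries numbered 1. Pdia6 lies on chromosome 12, 7.81 Mb from Id2 in GRCm38. On the same chromosome lie Dnajb9, 19.11 Mb from Id2, and Tmx1, both described below.

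The 3 transcription factor genes stand for the IRE1 and PERK arms of the UPR. Xbp1, whose spliced mRNA encodes the factor of the IRE1 arm, had 34.3, 22.4 and 49.9 CPM in deficient libraries, against 49.1, 32.8 and 63.7 CPM in wildtype libraries. The groups overlapped over most of their range (log2 fold change -0.45, SE 0.45). Atf4, the factor of the PERK arm and of the wider integrated stress response, had 110.0, 101 and 132 CPM in deficient libraries, against 233, 124 and 122 CPM in wildtype libraries. Wildtype library 1 stood above the other 5 libraries, which lay between 101 and 132 CPM. Atf4 had a log2 fold change of -0.48 (SE 0.30), and -0.09 without both libraries numbered 1. Ddit3, which encodes the proapoptotic factor CHOP that ATF4 induces, had 45.4, 18.9 and 25.6 CPM in deficient libraries, against 24.6, 20.6 and 26.4 CPM in wildtype libraries. Deficient library 1 was the highest and the other 5 libraries lay between 18.9 and 26.4 CPM (log2 fold change 0.33, SE 0.51).

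SE of the 10 log2 fold changes ran from 0.15 to 0.51. The 95% interval lay below a 2-fold higher level in 7 of the 10 genes, and within 2-fold either way in 4, Hspa5, Hsp90b1, Pdia3 and Canx. For Pdia4, Pdia6 and Ddit3 the interval reached beyond a 2-fold higher level, to ratios of 2.55, 2.99 and 2.76. Library 1 of the deficient mice was the highest of the 6 libraries in 4 of the 10 genes and the lowest in 2, and library 1 of the wildtype mice was the highest in 2 and the lowest in 4.

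Levels of different genes were compared as CPM per kilobase of annotated exon in GRCm38, over all 6 libraries. Hsp90b1 stood first at 248 ± 34.9 CPM per kilobase and Hspa5 second at 123 ± 10.6 (SD, n = 6 libraries). Their ranges did not overlap with each other or with that of Pdia3, next at 78.3 ± 10.6. From Pdia3 down, each gene overlapped in range with the next. Canx, Calr and Atf4 lay close together, at means of 65.5, 65.3 and 58.1 CPM per kilobase. Pdia4 had 35.4, and Ddit3, Pdia6 and Xbp1 were the lowest, at 15.7, 14.7 and 12.9 CPM per kilobase. Among libraries, Hspa5 varied least, with a highest value 1.21 times the lowest, and Pdia6 most, at 3.68 times.

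Cytosolic heat shock genes had a higher summed level in the deficient libraries, and the sums of the ER genes overlapped between the genotypes. The summed level of the 20 listed genes was 2768, 3301 and 3012 CPM in deficient libraries, against 1627, 1935 and 1782 CPM in wildtype libraries. The summed level of the 10 ER genes was 2610.0, 2556 and 2789 CPM in deficient libraries, against 2576, 2386 and 2741 CPM in wildtype libraries. The heat shock sums lay apart, while the ER sums overlapped and did not follow the heat shock order. Deficient library 2, highest for heat shock, was the lowest of the deficient libraries for the ER genes. Abundant genes weigh most in such sums. In deficient libraries Hsp90b1 had a mean of 1097 CPM, of a mean ER sum of 2652 CPM. Hsp90ab1 was likewise a large part of the heat shock sum. Of 19 tested heat shock genes, 1 passed over all genes tested (Hspa1a) and 10 had an unadjusted p under 0.05, all higher, in edgeR, beside 2.76% of all tested genes. Log2 fold changes were negative in 5 of the 19. In 11 of these 19 the deficient libraries lay above all wildtype libraries, where 6.03% of all tested genes did so. Their median log2 fold change was 0.95, against -0.04 for the ER genes and 0.02 for all genes tested. DESeq2 on the filtered genes called 7 of the heat shock genes and 0 of the ER genes, and 0.569% of all genes. The heat shock calls varied with the method. DESeq2 with its own filter called 6 (0.715% of all genes) and edgeR without a filter 7 (0.495%). Limma-voom called 0 of them (0.00853% of all genes). With the replicate number as a block, or with any 1 library left out, 0 heat shock genes and 0 genes in all were called. The heat shock list was chosen with its higher level known.

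**Figure D2:**
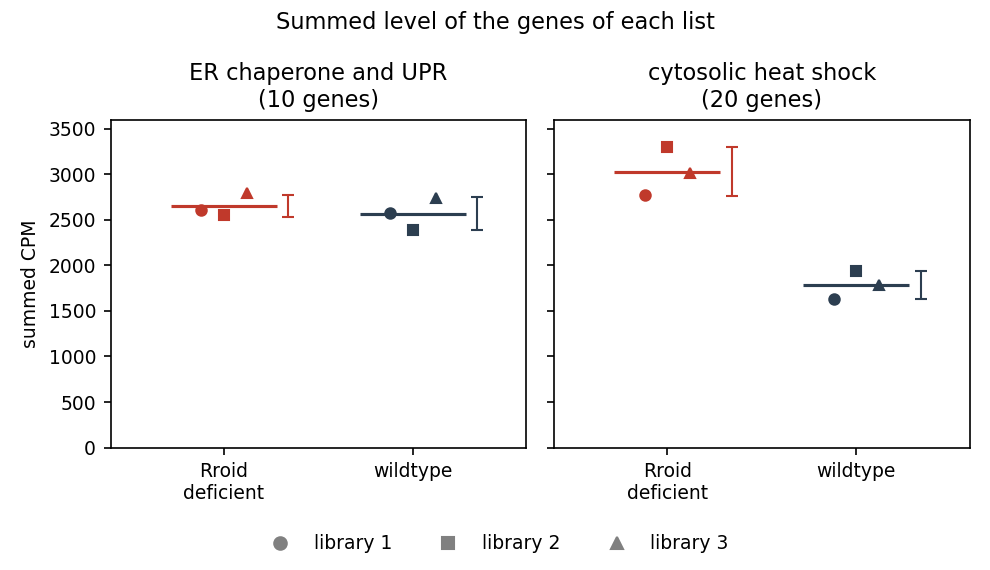
Summed CPM of the 10 ER chaperone and UPR genes (left panel) and of the 20 cytosolic heat shock genes (right panel) in each library, with mean and SD; Rroid-deficient libraries are red and wildtype libraries dark. The heat shock sums lie between 2768 and 3301 CPM in deficient and between 1627 and 1935 CPM in wildtype libraries, while the ER sums overlap.

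**Figure D3:**
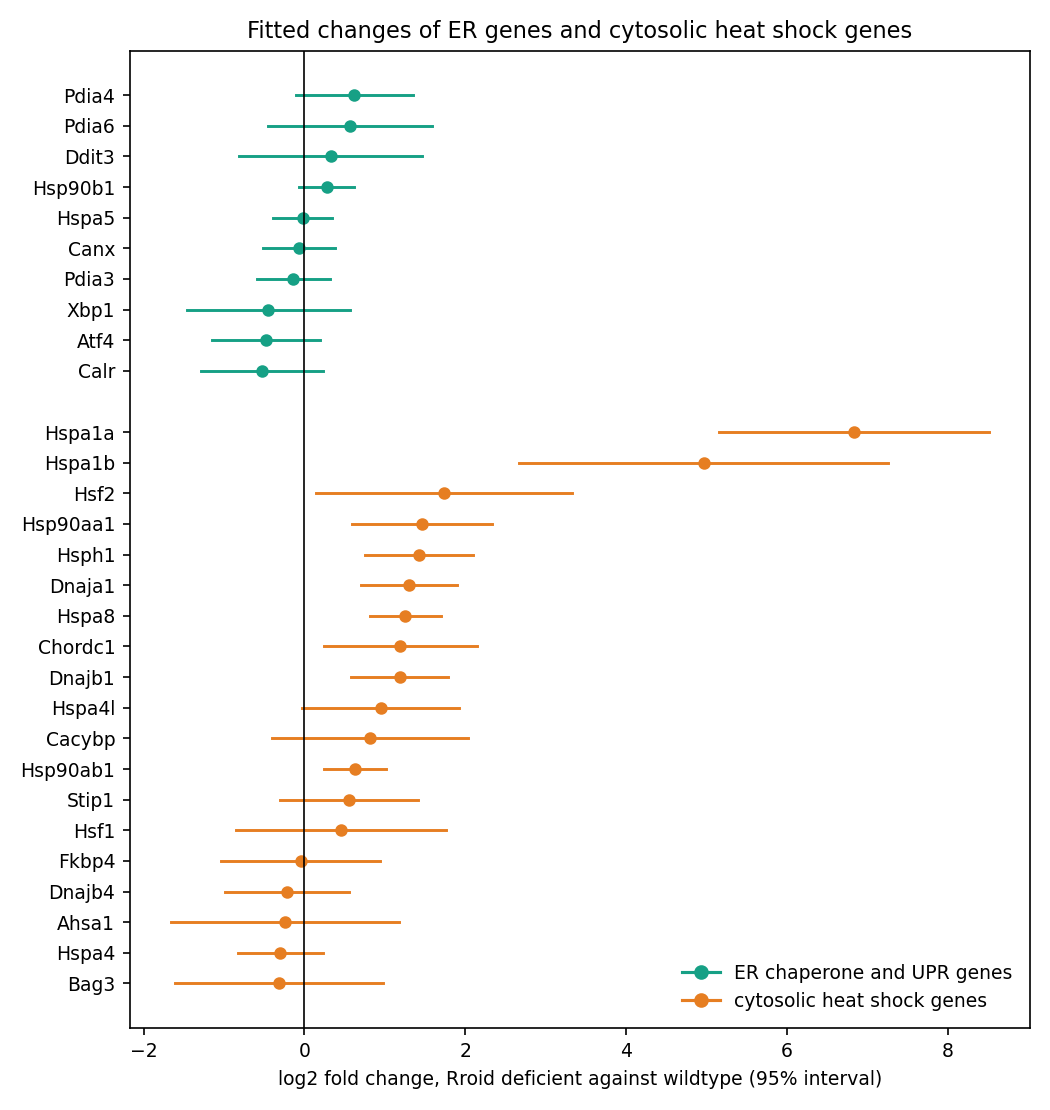
Log2 fold change of each tested gene with its 95% interval from edgeR, Rroid deficient against wildtype, for the ER chaperone and UPR genes (green, above) and the cytosolic heat shock genes (orange, below). The intervals of all 10 ER genes include 0. Those of Hspa1a, Hspa8 and Dnaja1 are among the heat shock intervals that lie above 0. In edgeR 10 of the 19 tested heat shock genes had an unadjusted p under 0.05, all higher.

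Relatives of the same family in different compartments allowed a comparison within each library that needs no scaling between libraries; these ratios are of counts, not per length, so they compare genotypes and not the levels of the genes. Hspa8, the constitutive Hsp70 of the cytosol, had 293, 342 and 292 CPM in deficient libraries, against 120, 140 and 129 CPM in wildtype libraries. The count of Hspa5 was 1.67, 1.41 and 1.99 times that of Hspa8 in deficient libraries, against 4.78, 3.46 and 3.99 times in wildtype libraries. The groups did not overlap, and the log2 ratio differed by -1.27 (deficient minus wildtype). The exact two-sided permutation test gave p = 0.1, the smallest that 3 against 3 libraries allow, and 0.267 adjusted over the 4 ratios compared. The cytosolic relatives were chosen with the higher level of the heat shock genes known. With Hspa5 at a log2 fold change of -0.02, the ratio to Hspa8 repeats that difference, and its p adds no separate support. The 95% interval of the Hspa5 fold change ended at 0.35, below that of Hspa8, which ran from 0.81 to 1.69.

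The Hsp90 pair differed less. Hsp90ab1, the constitutive cytosolic Hsp90, had 1008, 1085 and 1042 CPM in deficient libraries, against 531, 779 and 722 CPM in wildtype libraries. The count of Hsp90b1 was 1.15, 0.941 and 1.07 times that of Hsp90ab1 in deficient libraries, against 1.55, 1.07 and 1.46 times in wildtype libraries (1.072 in deficient library 3 and 1.075 in wildtype library 2). The groups overlapped, with a log2 difference of -0.36 (exact permutation p = 0.2, adjusted 0.267). Both genes had a positive log2 fold change, 0.28 for Hsp90b1 and 0.62 for Hsp90ab1, and neither passed in edgeR (adjusted p = 0.925 and 0.787).

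Ratios to the mitochondrial relatives overlapped between the groups as well. Hspa9, the mitochondrial Hsp70, had 66.2, 93.97 and 68.2 CPM in deficient libraries, against 34.5, 60.5 and 55.7 CPM in wildtype libraries. The log2 ratio of Hspa5 to Hspa9 was 2.89, 2.36 and 3.09 in deficient libraries, against 4.05, 3.004 and 3.21 in wildtype libraries, a difference of -0.64 (exact permutation p = 0.2, adjusted 0.267). Deficient library 3 lay above wildtype library 2, and the difference was -0.33 without wildtype library 1. For Hsp90b1 against Trap1, the mitochondrial Hsp90, the difference was 0.33 (exact permutation p = 0.9, adjusted 0.9), and without deficient library 1 it was -0.25.

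**Figure D4:**
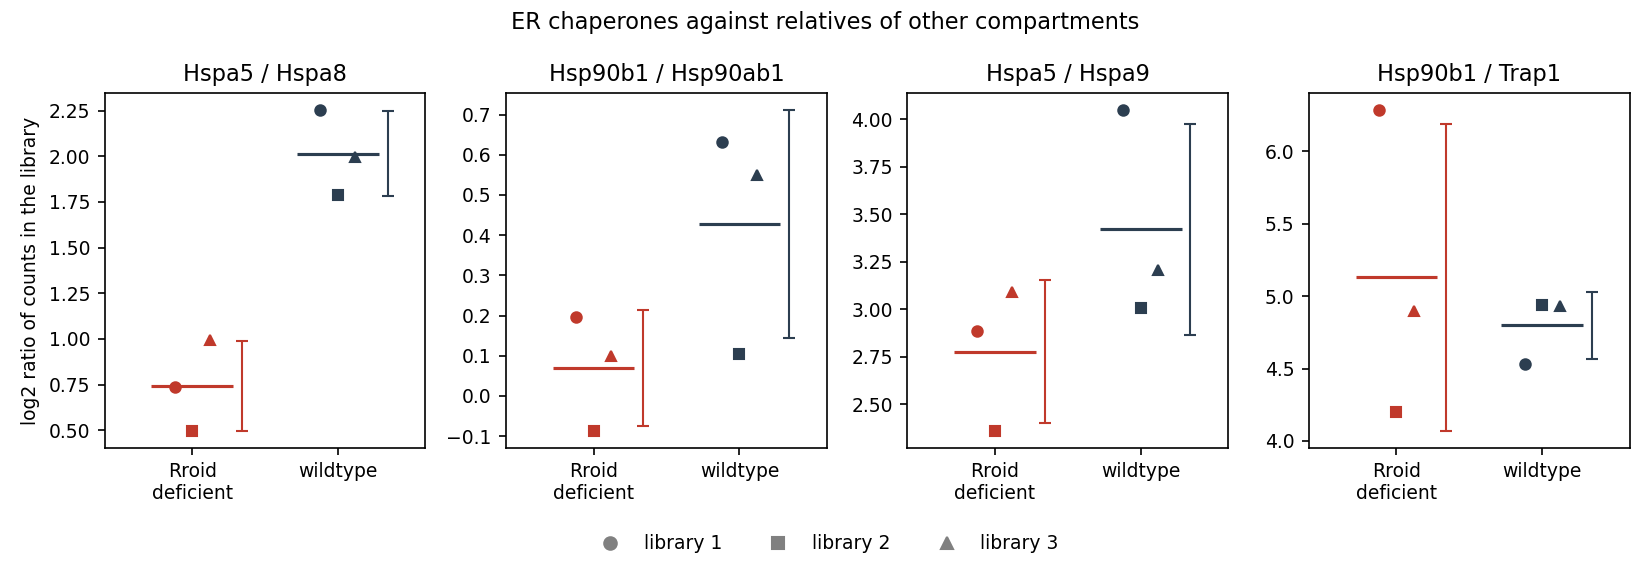
Log2 ratio of counts within each library for 4 pairs of an ER chaperone and a relative from the cytosol or the mitochondria, Rroid-deficient libraries at left (red) and wildtype libraries at right (dark), with mean and SD; the vertical axes do not start at 0. The groups lie apart for Hspa5 over Hspa8 and overlap for the other pairs.

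The wider ER pathway was described with 7 further lists, 97 genes in all, of which 87 were tested. None passed over all genes tested in edgeR, and DESeq2 called none of the genes named from these lists. At an unadjusted p under 0.05 there were 4 higher and 4 lower, of 87, where 5.29% of all tested genes lay in either direction. The libraries of the genotypes did not overlap in 11 of the 87, or 12.6%, beside 12.4% of all tested genes. The median log2 fold change was 0.02, as over all genes tested.

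Of 12 tested ER Hsp70 cofactors, 2 had an unadjusted p under 0.05, both higher, beside 2.76% of all tested genes. Dnajb9, which encodes ERdj4, a J-domain protein induced through XBP1, had 42.8, 85.3 and 45.8 CPM in deficient libraries, against 24.4, 23.7 and 21.2 CPM in wildtype libraries. Manf, a secreted ER stress protein that binds BiP, had 102, 56.4 and 50.3 CPM in deficient libraries, against 31.0, 31.0 and 31.8 CPM in wildtype libraries. Of the 12 genes, 2 (16.7%) had no overlap between the genotypes, beside 12.4% of all tested genes, 6.03% higher. In both, Dnajb9 and Manf, every deficient library lay above every wildtype library. In log2 fold change this was 1.32 for Dnajb9 (SE 0.43, unadjusted p = 0.0119; edgeR adjusted p = 0.895) and 1.15 for Manf (SE 0.40, unadjusted p = 0.0154; edgeR adjusted p = 0.906). DESeq2 on the filtered genes gave adjusted p-values of 0.23 and 0.305. Other UPR targets of this list did not share this order: Hyou1, the Hsp110 relative of the ER, had 35.0, 65.9 and 50.5 CPM in deficient libraries, against 20.7, 81.2 and 67.6 CPM in wildtype libraries. Sdf2l1, a stable partner of ERdj3, had 14.6, 24.5 and 44.4 CPM in deficient libraries, against 23.8, 30.4 and 31.6 CPM in wildtype libraries. Sec63 and Sil1 came next by p, at log2 fold changes of 0.40 (SE 0.35) and 1.85 (SE 1.61).

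The other disulfide isomerases and oxidases had a median log2 fold change of -0.01 over 12 tested genes. Tmx1, a membrane-bound thioredoxin of the ER, had the smallest p of the list, with 174, 63.5 and 78.1 CPM in deficient libraries, against 68.0, 37.5 and 52.2 CPM in wildtype libraries, a log2 fold change of 1.00 with an SE of 0.43 (unadjusted p = 0.0414). Deficient library 1 was far above the rest, and the groups overlapped. P4hb, which encodes the founding protein disulfide isomerase, had 95.1, 174 and 111 CPM in deficient libraries, against 87.8, 171 and 117 CPM in wildtype libraries, with a log2 fold change of 0.02. The oxidase gene Ero1lb had 14.6, 14.8 and 25.7 CPM in deficient libraries, against 38.5, 30.8 and 33.2 CPM in wildtype libraries. All its deficient libraries lay below all wildtype libraries. It was the 1 gene of the 12 (8.33%) without overlap, under the 12.4% of all tested genes. Qsox1 and Tmx3 had log2 fold changes of 1.67 (SE 0.82) and -0.65 (SE 0.38). Without deficient library 1 the values were 0.26 for Qsox1 and 0.43 for Tmx1.

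Log2 fold changes were positive in 5 of 8 tested genes of glycoprotein quality control and in 7 of 16 of ER-associated degradation. Mcfd2, a cargo receptor subunit for ER exit, had 2.74, 1.47 and 8.57 CPM in deficient libraries, against 17.5, 26.2 and 12.1 CPM in wildtype libraries (log2 fold change -2.12, SE 0.86). No deficient library reached the level of any wildtype library. Mcfd2 was the 1 gene of its list of 8 (12.5%) without overlap, near the 12.4% of all tested genes. The folding sensors Uggt1 and Uggt2 had log2 fold changes of 0.31 (SE 0.24) and 2.08 (SE 1.52), and the glucosidase subunit gene Prkcsh 0.53 (SE 0.52). Uggt2 was at 0.44 without deficient library 2, and Prkcsh at 0.16 without deficient library 1. Among the degradation genes the median was -0.19, and 2 of the 16 had all deficient libraries above all wildtype libraries, beside 6.03% of all tested genes. Without regard to direction this is 12.5%, near the 12.4% of all tested genes. These were the lectin gene Erlec1, at 61.8, 60.0 and 28.5 CPM in deficient libraries, against 27.9, 24.3 and 25.2 CPM in wildtype libraries, and Selenos. Selenos, a selenoprotein of the retrotranslocation complex, had 59.8, 66.4 and 64.9 CPM in deficient libraries, against 34.5, 59.4 and 42.0 CPM in wildtype libraries. Neither gene had an unadjusted p under 0.05. Herpud1, a common UPR target of this group, had 27.8, 64.1 and 49.2 CPM in deficient libraries, against 61.9, 35.8 and 41.4 CPM in wildtype libraries, and the groups overlapped. The mannosidase-like gene Edem3 had a log2 fold change of 0.47 (SE 0.29).

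In the translocon list of 11 genes, 2 had all deficient libraries below all wildtype libraries, beside 6.33% of all tested genes. Ssr2, a subunit of the translocon-associated complex, had 22.2, 15.3 and 23.9 CPM in deficient libraries, against 99.9, 48.9 and 35.4 CPM in wildtype libraries. Its log2 fold change was -1.58 (SE 0.49, unadjusted p = 0.00918; edgeR adjusted p = 0.895), and between -1.86 and -1.05 when any 1 library was left out. The signal peptidase subunit gene Spcs3 had 109, 140 and 157 CPM in deficient libraries, against 200.1, 169 and 179 CPM in wildtype libraries. The partner subunits Ssr1 and Ssr3 had log2 fold changes of -0.12 and 0.06, and Spcs1 and Spcs2 of -0.66 and 0.29.

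The UPR sensors overlapped between the genotypes in all 8 tested genes, where 12.4% of all tested genes had no overlap. With 8 genes, 0 without overlap cannot be told apart from that share. Ern1, which encodes IRE1 alpha, had 77.3, 103 and 64.7 CPM in deficient libraries, against 57.4, 126 and 101 CPM in wildtype libraries. Eif2ak3, which encodes PERK, had 12.5, 25.9 and 20.1 CPM in deficient libraries, against 26.5, 10.4 and 13.8 CPM in wildtype libraries. Atf6 had 111, 122 and 76.6 CPM in deficient libraries, against 199.5, 123 and 118 CPM in wildtype libraries. The groups overlapped in all 3 sensors, and wildtype library 1 stood above the rest for Atf6. Atf6b and Traf2 had log2 fold changes of 0.49 (SE 0.68) and 0.40 (SE 0.74). Traf2 turned to -1.04 without deficient library 2.

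Several targets of ATF4 lay at or near the counting limit. Of 28 integrated stress response genes, 8 did not pass the filter on low counts. Chac1 and Nupr1 had a count of 0 in every library, and Trib3 and Asns, both used as markers of ATF4 activity, had at most 0.415 and 0.157 CPM in any library. Counts of 0 leave room for up to 3 reads, or 0.326 to 0.515 CPM by library before scaling, for counting error only. Among the 20 tested, 10 were higher and 10 lower on the log2 scale, with 1 and 2 at an unadjusted p under 0.05, beside 2.76% higher and 2.52% lower of all tested genes. Ppp1r15b, the constitutive eIF2 alpha phosphatase subunit, had 129, 138 and 145 CPM in deficient libraries, against 269, 164 and 198 CPM in wildtype libraries, with a log2 fold change of -0.61 (SE 0.24; adjusted p in edgeR 0.914). Its inducible counterpart Ppp1r15a had 26.7, 12.9 and 33.0 CPM in deficient libraries, against 46.3, 48.4 and 28.3 CPM in wildtype libraries. Eif2ak4, which encodes the amino acid sensor kinase GCN2, had 17.3, 10.1 and 8.02 CPM in deficient libraries, against 35.1, 29.0 and 25.5 CPM in wildtype libraries. Ppp1r15b and Eif2ak4 were lower in every deficient library than in any wildtype library, and Ppp1r15a overlapped. The alanyl-tRNA synthetase gene Aars had 63.3, 88.7 and 56.7 CPM in deficient libraries, against 3.15, 39.7 and 25.3 CPM in wildtype libraries, so that every deficient library lay above every wildtype library. With Ppp1r15b and Eif2ak4 this made 3 of the 20 tested genes without overlap, or 15.0%, near the 12.4% of all tested genes. Cebpg, a partner of ATF4, had a log2 fold change of -0.81 (SE 0.44), and -0.30 without wildtype library 1.

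**Figure D5:**
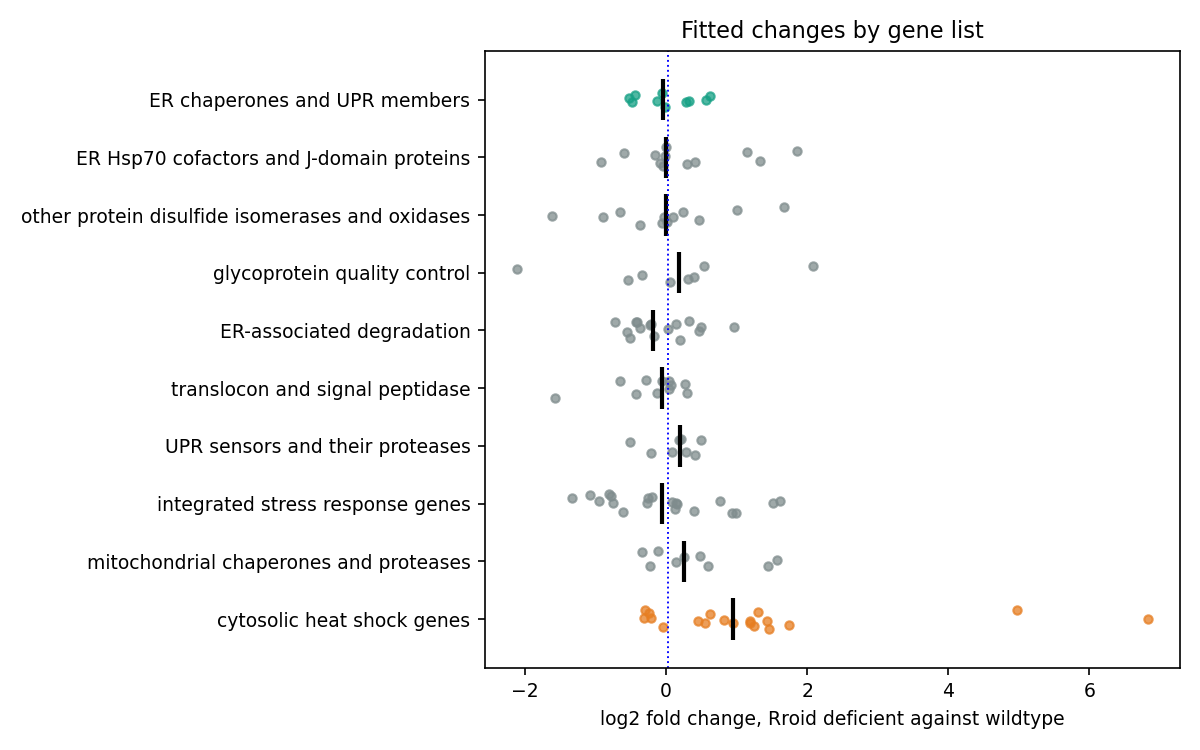
Log2 fold change (Rroid deficient against wildtype) of each tested gene, by list, with the list's median as a black bar and the median of all 11724 tested genes (0.02) as a dotted line. The ER lists centre near the dotted line, with medians of -0.19 to 0.19, and the cytosolic heat shock genes at 0.95.

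Markers of other cells were read beside these values, since plasma cells are rich in ER chaperones. Of 9 plasma cell markers, Sdc1, Tnfrsf17 and Fkbp11 had a count of 0 in every library, and Jchain had counts in wildtype library 1 alone. The summed level of the list was 330 to 605 CPM in deficient and 227 to 332 CPM in wildtype libraries, nearly all of it Ighm, which had 316 to 603 and 224 to 330 CPM. B cell markers summed to 1.63 to 14.9 CPM in deficient and 5.66 to 15.6 CPM in wildtype libraries, with Pax5 at 0 throughout. T cell markers summed to 91.5 to 135 CPM in deficient and 12.6 to 24.7 CPM in wildtype libraries, with Cd6 and Cd8a at 0 in every library and Cd3e at 0 in 5 of the 6. In deficient libraries nearly all of this sum was Cd3d and Cd3g, which edgeR did not call (adjusted p = 0.543 and 0.131) and DESeq2 on the filtered genes called higher (adjusted p = 0.00053 and 2.651e-09). Monocyte, macrophage and neutrophil markers summed to 380 to 438 CPM in deficient and 421 to 502 CPM in wildtype libraries, mostly Itgax, which NK cells also express, with Cd14 and S100a8 at 0. Erythroid markers summed to 0 to 3.87 CPM in deficient and 4.30 to 16.6 CPM in wildtype libraries. The 10 NK cell markers summed to 9445 to 10130.0 CPM in deficient and 11100.0 to 13320.0 CPM in wildtype libraries. Gzma, which encodes granzyme A, had 2315, 2726 and 2640.0 CPM in deficient libraries, against 5496, 3917 and 4090.0 CPM in wildtype libraries. It did not pass in edgeR (adjusted p = 0.543), and DESeq2 on the filtered genes called it lower (adjusted p = 0.00812). Klrb1c and Klrd1 also lay lower in every deficient library than in any wildtype library, and Ncr1 overlapped. With Gzma this made 3 of the 10 NK cell markers (30.0%) without overlap. Among all tested genes 12.4% had no overlap, 6.33% lower. The part of the T cell markers, the NK cell markers and Ighm in the values of Dnajb9, Manf and Pdia4 was not tested.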

How the data were processed

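For each library the authors deposited raw counts of reads by Ensembl gene. The last 5 rows of each table, which held 80.0% to 84.4% of the reads listed, name no gene and were left out. Per the submitters' processing notes, Trimmomatic 0.33, TopHat2 2.1.0, HTSeq 0.6.1 and DESeq2 were used with the builds NCBIM37 and mm9; the sources used here give neither the settings nor the strand of counting, so overlapping and antisense genes, and the near-identical Hspa1a and Hspa1b, are uncertain. Every pair of libraries differed by more than sampling noise (lowest chi-square over its degrees of freedom 19.2).

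Symbols came from a GRCm38 annotation (32919 genes matched). The test was edgeR 4.0.16 in R 4.3.3 (TMM, filterByExpr, quasi-likelihood fit on genotype, Benjamini-Hochberg over 11724 genes, threshold 0.05), tested on simulated data. SE are the log2 fold change over the root of F, with 95% intervals from the t distribution of the moderated degrees of freedom. Within-library ratios used log2(count + 0.5). The alternatives included DESeq2 1.42.0, limma-voom (limma 3.58.1), RLE scaling, no filter, a stricter filter (10 counts in 3 libraries and a mean of 2 CPM), library sizes without the 50 most abundant genes, leaving out each library, blocking on the replicate number, and thresholds of 0.1 and 0.01; DESeq2 on the filtered genes and leaving out both libraries numbered 1 were added after seeing the data. Motifs were searched as exact letters.

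The genes, lists and tests were chosen with earlier results of these data known. Named were the 10 genes; in each other list, members that passed or otherwise the up to 4 of smallest p; and fixed relatives in the cytosol and mitochondria. Hyou1, Sdf2l1, P4hb, Herpud1, Ern1, Eif2ak3, Ppp1r15a, Trib3, Asns, Ssr1, Ssr3, Spcs1 and Spcs2 as partners or common targets, and the cell markers, were named after their values were seen. Some genes that the rule names are not reported here. Figures were drawn with matplotlib 3.10.9.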

Additional observations from a re-analysis of the deposited data

How the results depend on the processing

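The count of 0 among the 10 ER genes was the same in all 15 alternative fits and at both other thresholds, and their median (log2 scale) ran from -0.11 to 0.01 as single libraries were left out. The sign of a gene differed from the reported one in 10 of 150 refits, none of them called: 4 for Hspa5, 3 for Canx, 2 for Ddit3 and 1 for Pdia3. The count over all genes, 2, was less stable: 88 with DESeq2, 65 with DESeq2 on the filtered genes, 98 without a filter, 1 with limma-voom, 0 at a threshold of 0.01, 0 to 0 with any 1 library left out, 0 without both libraries numbered 1, and 0 with the replicate number as a block. The cause was not tested. Same-numbered libraries did not deviate together (correlations of 0.007, -0.017 and 0.03). The labels do not say whether the numbers mark pairs, and such correlations cannot decide it. Under the block 0 of the 10 genes passed. The Hsp90b1 to Trap1 difference turned to -0.38 without both libraries numbered 1, and ran from -0.25 to 0.79 with any 1 library left out; the other 3 ratios kept their sign in every alternative, Hspa5 to Hspa9 between -0.85 and -0.33. A 2-fold difference lay within the 95% interval of Calr, Pdia4, Pdia6, Xbp1, Atf4 and Ddit3.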

Other observations

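The mitochondrial chaperone list lay between the ER and the cytosolic lists, with a median log2 fold change of 0.25 over 9 tested genes, none of which passed in edgeR. In 2 of the 9 (22.2%), Hspe1 and Hspa9, every deficient library lay above every wildtype library. Among all tested genes 12.4% had no overlap, 6.03% higher. The summed level of the list was 366 to 440 CPM in deficient and 268 to 319 CPM in wildtype libraries. Hspe1, the mitochondrial chaperonin subunit whose promoter stretch is printed above, had 856, 289 and 285 reads in deficient libraries, against 227, 192 and 146 reads in wildtype libraries. Its log2 fold change was 1.44 (SE 0.51, unadjusted p = 0.0176; edgeR adjusted p = 0.906), with the CPM of every deficient library above that of every wildtype library, and it was 0.74 without deficient library 1. Its partner Hspd1, read from the other side of the same promoter region, had 76.2, 113 and 127 CPM in deficient libraries, against 74.1, 78.9 and 73.0 CPM in wildtype libraries. The protease subunit gene Clpp had 53.5, 7.50 and 7.74 CPM in deficient libraries, against 8.39, 8.81 and 5.98 CPM in wildtype libraries, with deficient library 1 far above the rest.

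Patterns over the 6 libraries were compared by the root mean square distance of centred log2 CPM among the 6155 genes that averaged 20 CPM or more, as a description. Nearest to Hspa5 were Smad3, Cd44, Calm2, an entry with no symbol in the annotation used here and Azin1, at distances of 0.0747 to 0.0783. Nearest to Atf4 were Cwc15, Wbp11, Golm1, Gpx1 and Kif21b, at 0.0691 to 0.109. All 5 neighbours of Atf4 had their highest level in wildtype library 1, as Atf4 did, which follows from choosing them by this pattern. No heat shock or ER gene of the fixed lists was among these 10 neighbours. With 19 tested heat shock genes and 87 tested genes in the 7 ER lists, few beside 6155, such an absence carries no weight.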
